A study of Mus musculus with 20 samples.

Results

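The 28 genes described here encode the enzymes that make cholesterol from acetyl-CoA, the enzymes that draw isoprenoids off the same route, the proteins that control the transcription factor SREBP2, and a pair of further SREBP2 targets. They were chosen by symbol for their place in the pathway or its control, with earlier results of these data known. All 28 were found among the 51456 symbols of each file, and all 28 reached the mean of 1 FPKQ that was required for testing, as did 10843 symbols in all. FPKQ, the authors' expression value, behaves as fragments per kilobase on a common scale, so levels can be set side by side between genes as well as between libraries. The role assigned to each gene follows the textbook order of the pathway: 7 enzymes from acetyl-CoA to farnesyl diphosphate, 3 enzymes of the isoprenoid branch, 3 that make squalene and lanosterol, 9 from lanosterol to cholesterol, 4 regulators of SREBP2 and 2 other targets.

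The libraries were poly-A selected, strand-specific RNA sequencing libraries of bone marrow-derived macrophages, which are macrophages grown from bone marrow with CSF-1 (M-CSF), the growth factor of this lineage. All mice were C57BL/6 and aged 4 to 5 months, and all cultures received CSF-1 at 50 ng/ml for 6 days with no further stimulus. The 3 groups were wild type (WT, n = 10), a Trem2 knockout labelled TREM2 5bp KO (KO, n = 5) and a knock-in of the Alzheimer's disease variant labelled TREM2 R47H KI (R47H, n = 5). The submitters describe wild-type littermates of each mutant line with 5 animals per genotype, but the labels do not say which WT libraries belong to which line. Trem2 encodes a surface receptor for lipids on macrophages and microglia, and the labels name no Cre or cell-type promoter for either allele. The question was how loss of TREM2, or the R47H substitution, shifts expression in these cells.

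Cholesterol synthesis starts with the joining of acetyl-CoA units, runs through mevalonate to farnesyl diphosphate, and from there through squalene and lanosterol to cholesterol. Farnesyl diphosphate is also the source of geranylgeranyl groups, dolichol and ubiquinone, so it is the point where the sterol route and the non-sterol routes part. SREBP2, encoded by Srebf2, is made as a membrane protein of the endoplasmic reticulum, where SCAP escorts it and INSIG proteins hold it back when sterols are plentiful. When sterols are scarce the complex moves to the Golgi, SREBP2 is cut, and its released part switches on the genes of synthesis and uptake. Macrophages take in much cholesterol from engulfed cells and lipoproteins, and their synthesis genes are known to be turned down when they do.

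In depth, 1 FPKQ in a gene of 2 kb stood for an estimated 61.2 ± 5.09 fragments in WT (mean ± SD, n = 10). The estimates were 51.7 ± 3.89 over the KO and 52.7 ± 3.82 over the R47H libraries. They rest on a fragment size inferred from the spacing of low FPKQ values, not on read counts. Trem2 mRNA averaged 806 ± 60.6 FPKQ in WT, 24.1 ± 0.435 in KO and 652 ± 137 in R47H. The KO difference on the log2(FPKQ + 1) scale was -5.00 (exact two-sided permutation p = 0.000333, the smallest that 3003 splits allow), and the R47H difference was -0.33 (exact permutation p = 0.00833). Against WT Rep6 to Rep10 alone the R47H difference in Trem2 was -0.27, with an exact permutation p of 0.135. The defining markers of macrophages were high, their 8-gene sum being 24825 ± 1106 FPKQ in WT, 33462 ± 1097 in KO and 27989 ± 1244 in R47H. Lyz2, the lysozyme of these cells, made up 20996 of the WT, 29652 of the KO and 23932 of the R47H sum, and the other 7 summed to 3829 ± 74.0, 3810 ± 134 and 4057 ± 107. Among the 7, Cd14, Itgam and Fcgr1 were lower in KO, at 41.2%, 67.9% and 74.3% of WT, and Csf1r, Adgre1 and Mertk were higher. The summed markers of lymphocytes, of stroma, and of erythroid and mast cells reached at most 0.571, 1.77 and 0.885 FPKQ in any library and those of dendritic cells 3.10, while the 10 neutrophil genes summed to 58.7 ± 12.3 in WT, 61.3 ± 12.6 in KO and 83.1 ± 25.5 in R47H. The precursor genes Elane and Mpo, which averaged 0.374 and 0.438 FPKQ in WT, 1.004 and 1.102 in KO, and 0.549 and 0.822 in R47H, did not reach the level required for testing, and their part in the results was not tested. In bulk samples such as these, fewer cells of a type and less RNA per cell cannot be told apart.

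The promoters of 24 of the 28 genes were present in the RefSeq table used (build GRCm38.p6), and Fdps, Fdft1, Sqle and Stard4 had no entry. Windows of 300 bases, from 250 before to 50 after the transcription start, were searched on both strands for letters bound by SREBP2 and the factors it works with. Some genes had more than 1 start, and a match in the window of any start counted. The sterol regulatory element of the textbook, TCACNCCAC, stood in 1 of the 24 genes, Hmgcs1, which is 4.17% of them, against 1.37% of the 8343 tested genes with a promoter. A looser form chosen after that search, TCACCNNA, which overlaps the strict one, stood in 9 genes or 37.5%, against 12.6%. In Insig2, Dhcr7 and Acss2 this looser match lay inside the annotated gene, past its start. The E-box CACGTG stood in 25% against 12.5%, and in Dhcr7 and Scap its matches also lay inside the annotated gene. The GC box GGGCGG stood in 91.7% against 69.7%, and the CCAAT box CCAAT in 91.7% against 43.4%. Some GC box and CCAAT box matches lay inside the gene as well, among them those in Lbr and Tm7sf2. The CCAAT box was found in 15 of the 16 genes with a promoter that were lower in KO and in 7 of the 8 that were not, and the looser sterol form in 7 of the 16 and 2 of the 8. The 4 sequences below are shown because they belong to the gene with the strict match, to the late enzyme with the deepest fall, to a feedback target of SREBP2 and to an enzyme that rose in KO. Hmgcs1 itself lies at chr13:119690379-119708260, Cyp51 at chr5:4081145-4104746, Insig1 at chr5:28071363-28078662 and Ggps1 at chr13:14050659-14063488 (GENCODE M21, GRCm38). The sequences run 5′ to 3′ and stop before the annotated gene start, and capitals mark every match to the 5 sets of letters.
Hmgcs1 (chr13:119690101-119690350, plus strand): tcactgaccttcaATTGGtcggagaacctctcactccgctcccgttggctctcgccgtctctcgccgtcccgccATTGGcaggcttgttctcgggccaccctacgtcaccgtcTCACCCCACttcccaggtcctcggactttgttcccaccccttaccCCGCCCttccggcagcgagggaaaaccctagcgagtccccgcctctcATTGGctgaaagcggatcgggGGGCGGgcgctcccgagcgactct
Cyp51 (chr5:4104747-4104947, minus strand): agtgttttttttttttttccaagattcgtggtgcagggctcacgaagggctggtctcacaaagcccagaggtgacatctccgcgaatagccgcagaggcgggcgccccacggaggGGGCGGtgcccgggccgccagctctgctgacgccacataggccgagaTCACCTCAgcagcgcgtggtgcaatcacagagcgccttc
Insig1 (chr5:28071162-28071362, plus strand): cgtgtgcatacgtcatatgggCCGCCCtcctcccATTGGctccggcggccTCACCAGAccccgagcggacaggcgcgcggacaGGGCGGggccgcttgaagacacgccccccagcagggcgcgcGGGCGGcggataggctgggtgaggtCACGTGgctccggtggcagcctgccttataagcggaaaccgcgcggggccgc
Ggps1 (chr13:14063489-14063738, minus strand): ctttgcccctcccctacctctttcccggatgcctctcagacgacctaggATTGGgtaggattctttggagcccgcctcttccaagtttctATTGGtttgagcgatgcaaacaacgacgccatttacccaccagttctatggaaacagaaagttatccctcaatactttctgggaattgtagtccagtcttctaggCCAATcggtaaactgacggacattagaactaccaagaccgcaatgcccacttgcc
In Hmgcs1 the strict element TCACCCCAC lies 137 bases before the RefSeq start, between inverted CCAAT letters (ATTGG) on either side. Cyp51 holds the looser form TCACCTCA 88 bases before its RefSeq start. Insig1 holds TCACCAGA at 200 and CACGTG at 101 bases before its RefSeq start. In both genes the RefSeq start lies past the end of the sequence shown. Ggps1, which was higher in KO where the other 3 were lower, has 3 CCAAT letters in this stretch and neither form of the sterol element. A match of letters is a description and not a measured binding site.

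Without TREM2 the sterol route was lower along almost its whole length. Of the 28 genes, 20 were lower in KO than in WT, 3 were higher (Ggps1, Nus1 and Scap) and 5 were not called, at an adjusted p under 0.05. Over all genes tested, 23.7% were called lower and 28.2% higher in the same comparison. The median log2 difference of the 28 was -0.76, against 0.01 over all genes tested. With libraries rescaled to equal sums, higher calls made up 36.1% of all calls in place of 54.3%, and of the 28 genes 23 were lower and 1, Ggps1, higher. The 19 enzymes of the sterol line, which leave out the isoprenoid branch and the regulators, summed to 734 ± 106 FPKQ in WT and 335 ± 18.9 in KO, or 45.7% of WT. Of these 19 enzymes, 17 were lower in KO, none was higher, and Tm7sf2 and Ebp were not called. In 18 genes every KO library lay below every WT library, and in Ggps1 every KO library lay above, where 13.3% and 15.4% of all genes tested did so.

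**Figure D1:**
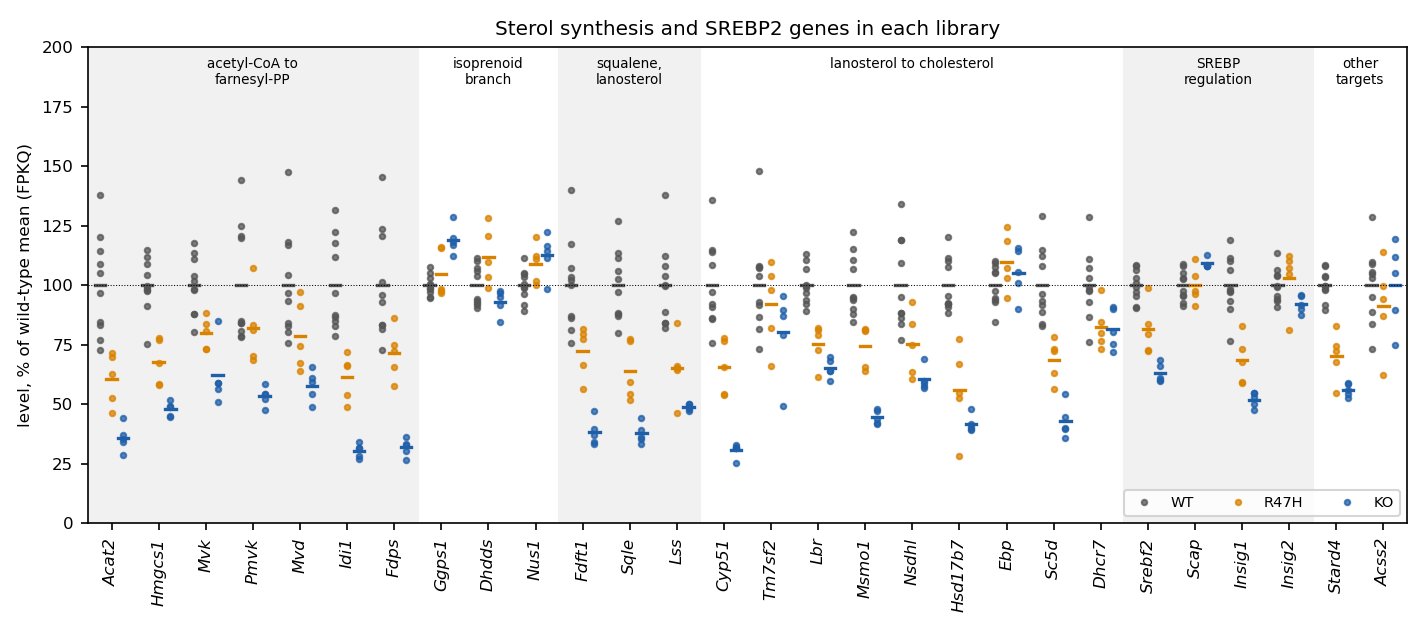
Level of each gene in each library as a percent of the mean of the 10 WT libraries (y axis, from FPKQ), with the genes ordered by step on the x axis; points are libraries, short bars are group means, and the dotted line is the WT mean. The KO points sit lowest for most sterol enzymes, down to a mean of 30.3% of WT for Idi1, the R47H points lie between, and Ggps1, Nus1 and Ebp do not follow.

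The first 7 enzymes, which carry carbon from acetyl-CoA to farnesyl diphosphate, were all lower in KO. Acat2, which joins the first acetyl units in the cytosol, measured 13.9 FPKQ in the lowest, 19.3 in the median and 26.3 in the highest WT library. The KO libraries Rep1 to Rep5 had 8.415, 6.73, 5.48, 7.06 and 6.54, and the R47H libraries 11.9, 8.86, 13.4, 13.7 and 10.1. The 3 groups did not overlap for this gene, with R47H between the others. The difference from WT was -1.34 in KO (SE 0.13, adjusted p = 1.76e-08) and -0.67 in R47H (SE 0.13, adjusted p = 0.000757). The tandem copy Acat3, with which reads could be shared, was at 0.162 FPKQ in WT and so added little.

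Hmgcs1, which makes HMG-CoA, was among the most abundant of the early enzymes on the per-length scale, at 61.3, 80.9 and 93.5 FPKQ in the lowest, median and highest WT libraries. It measured 36.8, 39.8, 36.4, 40.2 and 42.1 in KO and 54.8, 47.8, 63.6, 62.9 and 47.5 in R47H. All KO libraries were below all others, while the top R47H libraries passed the lowest WT value. The log2 differences were -1.04 in KO (adjusted p = 1.23e-09) and -0.55 in R47H (adjusted p = 6.04e-05).

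Idi1, the isomerase that supplies dimethylallyl diphosphate, had the largest fall of the 28 in KO. Its WT libraries ran from 47.7 through a median of 55.8 to 79.8 FPKQ, the KO libraries had 20.6, 19.1, 17.04, 19.2 and 16.2, and the R47H libraries 40.2, 29.6, 40.2, 43.6 and 32.6. No group overlapped another. The difference from WT was -1.65 in KO (95% interval -1.89 to -1.41) and -0.68 in R47H (-0.93 to -0.44).

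Mvk, Pmvk and Mvd, which add phosphate to mevalonate and remove its carboxyl group, were lower by less. Their KO differences were -0.63, -0.83 and -0.73, with adjusted p-values of 6.32e-06, 2.66e-05 and 6.45e-05. Of the 3 only Mvk passed in R47H, at -0.29 (adjusted p = 0.0278), while Pmvk was at -0.26 (adjusted p = 0.194) and Mvd at -0.32 (adjusted p = 0.0833). Pmvk and Mvd had wide WT groups, from 20.9 to 38.4 and from 21.5 to 42.0 FPKQ, and both were called lower in R47H when WT Rep6 to Rep10 were the only WT libraries (adjusted p = 0.0194 and 0.0212) and with libraries rescaled to equal sums (adjusted p = 0.0464 and 0.0194). The call on Mvk in R47H did not hold with WT Rep1 to Rep5 as the only controls, where the adjusted p was 0.109, or without R47H Rep1 or Rep5 (adjusted p = 0.0690 and 0.0683). Mvd was called lower in R47H without R47H Rep4 (adjusted p = 0.0424). It overlaps Gm20388 on the opposite strand, a gene with a mean of 25.3 FPKQ, and no source used here says whether the counting used the strand.

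Fdps, which makes farnesyl diphosphate, stands at the branch point and had one of the highest levels of the pathway, 105 ± 24.2 FPKQ in WT (n = 10). The WT libraries ran from 76.35 through 99.1 to 153. KO libraries had 34.7, 34.9, 28.01, 38.1 and 32.0, and R47H libraries 76.05, 69.1, 90.5, 78.6 and 60.3. KO was apart from both other groups, and R47H overlapped the lower WT libraries. The differences were -1.59 in KO (adjusted p = 1.53e-09) and -0.46 in R47H (adjusted p = 0.0152), and the R47H call was lost with WT Rep1 to Rep5 as the only controls (-0.26, adjusted p = 0.0914) and without R47H Rep5 (adjusted p = 0.0531).

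The enzymes that take farnesyl diphosphate away from sterols did not share a fall of this size. Of 3 genes of the isoprenoid branch, Ggps1 and Nus1 were higher in KO and Dhdds was not called, and none was called in R47H. With WT Rep6 to Rep10 as the only controls, and again with equal sums, Ggps1 was higher in KO, Nus1 was not called and Dhdds was lower. Ggps1, which makes geranylgeranyl diphosphate for the tails of small GTPases, had 7.43, 7.80 and 8.43 FPKQ in the lowest, median and highest WT libraries. The KO libraries had 8.81, 10.1, 9.40, 9.15 and 9.27, every one above WT, and the R47H libraries 9.05, 7.70, 7.59, 7.65 and 9.11, spread over both ranges. The difference was 0.23 in KO (SE 0.05, adjusted p = 0.000471) and 0.06 in R47H (adjusted p = 0.436). Ggps1 overlaps Arid4b on the opposite strand, at 9.21 FPKQ.

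Dhdds and Nus1 encode the paired subunits of the cis-prenyltransferase that builds dolichol, the lipid carrier of N-glycosylation. Nus1 was 34.5 ± 2.29 FPKQ in WT, 38.8 ± 3.04 in KO and 37.6 ± 2.86 in R47H, a KO difference of 0.17 (adjusted p = 0.0181) that was lost with WT Rep6 to Rep10 as the only controls (0.10, adjusted p = 0.222), with libraries rescaled to equal sums (0.08, adjusted p = 0.170) and without KO Rep3 (adjusted p = 0.0695). Dhdds was 16.9 ± 1.41, 15.7 ± 0.878 and 18.95 ± 2.07, with KO at -0.10 (adjusted p = 0.214) and R47H at 0.15 (adjusted p = 0.0915, or 0.0388 without R47H Rep5). Against WT Rep6 to Rep10 alone Dhdds was lower in KO by -0.20 (adjusted p = 0.0176), and with equal sums by -0.17 (adjusted p = 0.0242). Which of the partners was called in KO thus depended on the WT libraries and on the scaling. The summed level of the 3 branch genes was 59.3 ± 3.46 in WT, 63.9 ± 3.03 in KO and 64.8 ± 4.52 in R47H.

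**Figure D2:**
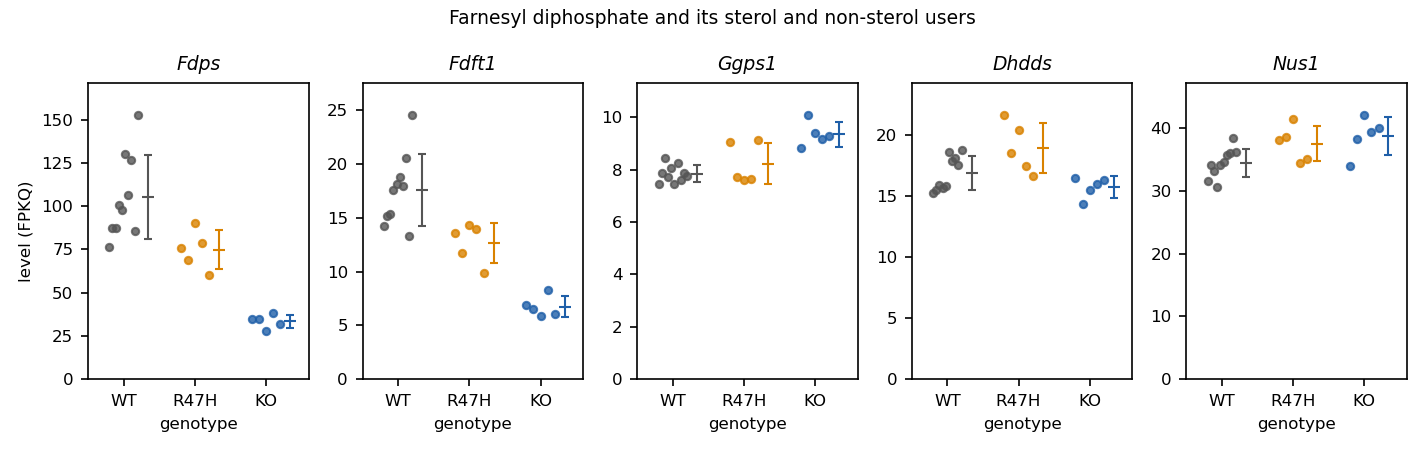
Level (y axis, FPKQ from 0) of the enzyme that makes farnesyl diphosphate (Fdps), the enzyme that commits it to sterols (Fdft1) and the enzymes of the isoprenoid branch (Ggps1, Dhdds, Nus1), by genotype on the x axis; points are libraries and bars are mean ± SD. Fdps and Fdft1 in KO lie below all WT libraries, Ggps1 in KO lies above all of them, and Dhdds and Nus1 overlap between WT and KO.

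The 3 enzymes that make squalene and close it into lanosterol were lower in both mutants. Fdft1, the squalene synthase, had 13.3, 17.8 and 24.6 FPKQ in the lowest, median and highest WT libraries, 6.92, 6.51, 5.86, 8.27 and 6.02 in KO, and 13.6, 11.7, 14.3, 13.9 and 9.91 in R47H. KO did not overlap WT or R47H, and R47H overlapped WT at its lower end. The differences were -1.26 (adjusted p = 6.12e-09) and -0.43 (adjusted p = 0.00921). Fdft1 overlaps Ctsb, a very abundant gene on the opposite strand at a mean of 5125 FPKQ.

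Sqle, the squalene epoxidase and a control point of the pathway, ran from 37.6 through 46.9 to 59.7 FPKQ in WT. It had 17.1, 18.4, 15.6, 16.7 and 20.9 in KO and 27.9, 24.3, 35.9, 36.4 and 25.4 in R47H. No group overlapped another, though the R47H libraries Rep3 and Rep4 came close to the lowest WT library. The KO difference was -1.35 (SE 0.11) and the R47H difference -0.64 (SE 0.11), with adjusted p-values of 7.04e-10 and 0.00016. Lss, the lanosterol synthase, was 12.8 ± 2.19, 6.26 ± 0.168 and 8.36 ± 1.71 in WT, KO and R47H, and R47H Rep2 at 5.94 lay below every KO library.

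Between lanosterol and cholesterol, 7 of 9 enzymes were lower in KO and 7 of 9 in R47H. Cyp51, which removes the first methyl group from lanosterol, had the deepest fall of these. Its WT libraries ran from 43.6 through 54.5 to 78.2 FPKQ, KO had 18.8, 18.2, 14.5, 18.3 and 18.2, and R47H had 37.9, 31.0, 45.0, 44.1 and 31.2. The top R47H libraries overlapped the lowest WT libraries, and every KO library lay below both. The differences were -1.64 (adjusted p = 1.13e-10) and -0.59 (adjusted p = 0.00075). Cyp51 overlaps Akap9 on the opposite strand, which had a mean of 4.33 FPKQ.

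Msmo1, Nsdhl and Hsd17b7 act one after the other to take off the remaining methyl groups. Msmo1 had the highest WT mean of the 28 genes, with 94.8, 106 and 137 FPKQ in the lowest, median and highest WT libraries. It measured 54.0, 47.4, 46.8, 49.1 and 53.0 in KO and 91.6, 73.55, 90.4, 90.95 and 72.0 in R47H, so that all groups were apart, by a narrow margin between R47H and WT. Its differences were -1.14 (adjusted p = 2.17e-10) and -0.42 (adjusted p = 0.00094). Hsd17b7 was 6.58 ± 0.735 in WT, 2.74 ± 0.235 in KO and 3.67 ± 1.21 in R47H, and at -0.74 it had the largest R47H difference of the 28 (adjusted p = 9.69e-05). Its R47H libraries ranged from 1.85 in Rep2, below all KO libraries, to 5.09 in Rep4. Nsdhl differed by -0.66 in KO (adjusted p = 4.98e-05) and by -0.38 in R47H (adjusted p = 0.0193), the latter lost with WT Rep1 to Rep5 as the only controls (adjusted p = 0.165) and without R47H Rep2 or Rep3 (adjusted p = 0.079997 and 0.0636).

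A pair of enzymes can reduce the same double bond of the sterol, Lbr, which is also the lamin B receptor of the nuclear envelope, and Tm7sf2. Lbr was 17.2 ± 1.36 FPKQ in WT, 11.2 ± 0.68 in KO and 12.9 ± 1.47 in R47H, with every library of both mutants below every WT library and differences of -0.58 (adjusted p = 1.25e-07) and -0.39 (adjusted p = 0.000131). Tm7sf2 was 7.28 ± 1.51, 5.83 ± 1.33 and 6.69 ± 1.3, with an interval in KO of -0.57 to -0.00 (adjusted p = 0.0861, or 0.0477 without WT Rep1 and 0.0317 with equal sums) and in R47H of -0.39 to 0.18 (adjusted p = 0.631). It overlaps Vps51 on the same strand, which was more abundant at 31.9 FPKQ, so its reads may be harder to assign.

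The last steps did not move as 1 block. Sc5d, the desaturase of this stretch, ran from 44.9 through 51.5 to 70.0 FPKQ in WT, with 24.2, 21.4, 19.5, 21.7 and 29.4 in KO and 39.6, 30.5, 39.2, 42.4 and 34.3 in R47H. The 3 groups did not overlap, and the differences were -1.19 (adjusted p = 3.94e-09) and -0.53 (adjusted p = 0.000889). Ebp, the isomerase that acts just before it, had 29.6 ± 2.54 in WT, 31.2 ± 3.09 in KO and 32.4 ± 3.56 in R47H. Its intervals, -0.08 to 0.22 in KO and -0.02 to 0.27 in R47H, hold no fall as large as that of Sc5d. Dhcr7, which acts near the end of the route, was 19.2 ± 2.73, 15.7 ± 1.63 and 15.8 ± 1.84, with differences of -0.27 (adjusted p = 0.0164) and -0.26 (adjusted p = 0.0446). With WT Rep1 to Rep5 as the only controls its calls were lost in KO (-0.13, adjusted p = 0.239) and in R47H (-0.12, adjusted p = 0.363). The KO call was also lost without KO Rep4 (adjusted p = 0.0573), and the R47H call when any 1 of 13 of the 20 libraries was left out, with adjusted p-values from 0.0501 to 0.136.

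The regulators split in a similar way, with the factor and its sterol-responsive partner lower and the other pair closer to WT. Srebf2, the gene of SREBP2, had 49.5, 54.8 and 59.4 FPKQ in the lowest, median and highest WT libraries. KO libraries had 36.2, 32.7, 33.3, 32.9 and 37.4 and R47H libraries 39.5, 39.9, 45.8, 54.1 and 43.6. KO was below every WT library, and of the R47H libraries only Rep4 lay inside the WT range. The differences were -0.65 (adjusted p = 2.18e-08) and -0.30 (adjusted p = 0.00186). Insig1, a retention protein that SREBP2 itself induces, ran from 65.2 through 83.5 to 101 in WT, with 45.0, 46.7, 40.3, 42.4 and 46.6 in KO and 57.7, 50.0, 62.4, 70.5 and 50.6 in R47H. R47H Rep4 again lay inside the WT range while the other mutant libraries lay below it, and the differences were -0.92 (adjusted p = 1.3e-08) and -0.54 (adjusted p = 0.000114).

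Insig2, the paralogue that is not an SREBP2 target in most cells, was 15.7 ± 1.09 FPKQ in WT, 14.5 ± 0.563 in KO and 16.2 ± 1.99 in R47H. Neither difference passed, at -0.11 (95% interval -0.24 to 0.02) and 0.03 (-0.10 to 0.16). In KO it was called lower against WT Rep6 to Rep10 alone (-0.18, adjusted p = 0.0463) and with equal sums (-0.19, adjusted p = 0.00884). The ratio of Insig1 to Insig2 was 5.45 ± 0.864 in WT, 3.06 ± 0.217 in KO and 3.69 ± 1.06 in R47H, and the WT libraries, at 3.98 to 6.65, did not overlap the KO libraries, at 2.69 to 3.24. In R47H it was 3.43, 2.89, 3.53, 5.53 and 3.08, with Rep4 alone in the WT range. Scap, the escort of SREBP2, was 13.7 ± 0.865, 14.9 ± 0.272 and 13.7 ± 1.04, a KO difference of 0.12 (adjusted p = 0.0427) that was lost against either set of WT libraries alone (adjusted p = 0.136 and 0.0656), with equal sums (0.04, adjusted p = 0.633) and in 10 of the 20 fits that left out 1 library, among them every one without a KO library (adjusted p-values from 0.0597 to 0.0983).

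**Figure D3:**
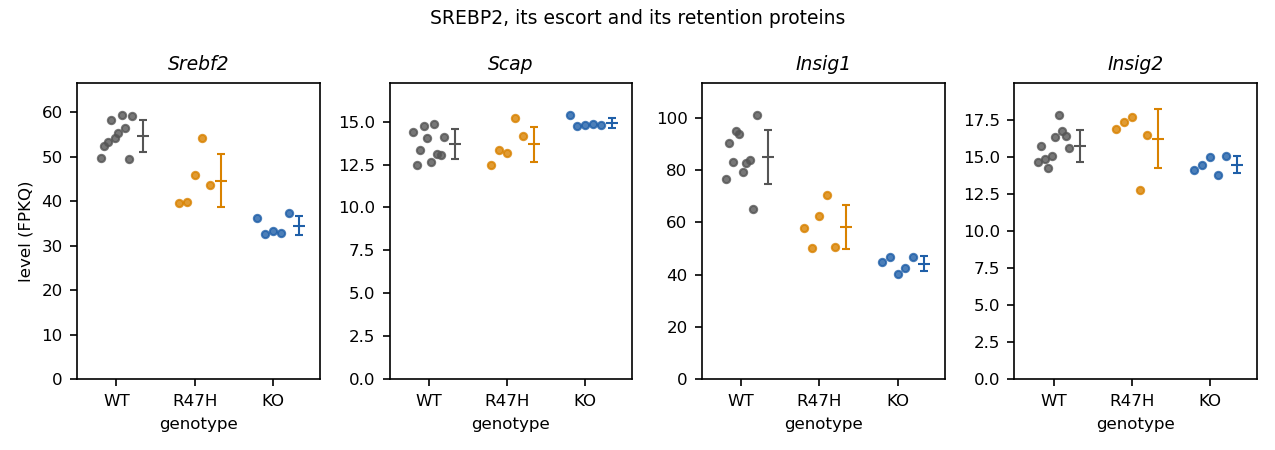
Level (y axis, FPKQ from 0) of Srebf2, Scap, Insig1 and Insig2 by genotype on the x axis; points are libraries and bars are mean ± SD. Srebf2 and Insig1 step down from WT through R47H to KO, to 63% and 51.9% of WT, while Scap and Insig2 stay within 92% to 109% of the WT mean.

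Of the 2 other targets, Stard4, a cytosolic carrier that moves cholesterol between membranes, followed the enzymes. It had 18.1, 20.04 and 21.8 FPKQ in the lowest, median and highest WT libraries, 11.8, 10.96, 11.9, 11.3 and 10.6 in KO, and 14.997, 11.01, 14.6, 16.6 and 13.6 in R47H. Both mutants lay below all WT libraries, and R47H Rep2 lay among the KO values. The differences were -0.78 (adjusted p = 2.04e-09) and -0.49 (adjusted p = 1.4e-05). Acss2, which makes acetyl-CoA from acetate, was 5.44 ± 0.849, 5.45 ± 0.974 and 4.97 ± 1.04, with a KO interval of -0.24 to 0.23, narrow beside the fall of Stard4. Acss2 overlaps Gss on the opposite strand, at 9.502 FPKQ.

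In R47H the same route was lower, but less so. Of the 28 genes, 18 were lower than WT, none was higher and 10 were not called, where 7.83% of all genes tested were called lower and 13.4% higher. The median difference of the 28 was -0.39, against 0.04 over all genes tested. Rescaling to equal sums moved the all-gene median to -0.07 and the share of higher calls from 63.1% to 20.7% (48.6% after quantile normalization). Relative to the all-gene median, the median of the 28 was -0.42 before and -0.43 after that rescaling, with 20 genes lower. The 19 sterol enzymes summed to 528 ± 62.4 FPKQ, or 72.0% of WT, and 15 of the 19 were lower. In 8 genes, Acat2, Idi1, Sqle, Lbr, Msmo1, Hsd17b7, Sc5d and Stard4, every R47H library lay below every WT library, as in 3.14% of all genes tested. Both mutants were compared with the same 10 WT libraries, so their differences from WT are not independent of each other.

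**Figure D4:**
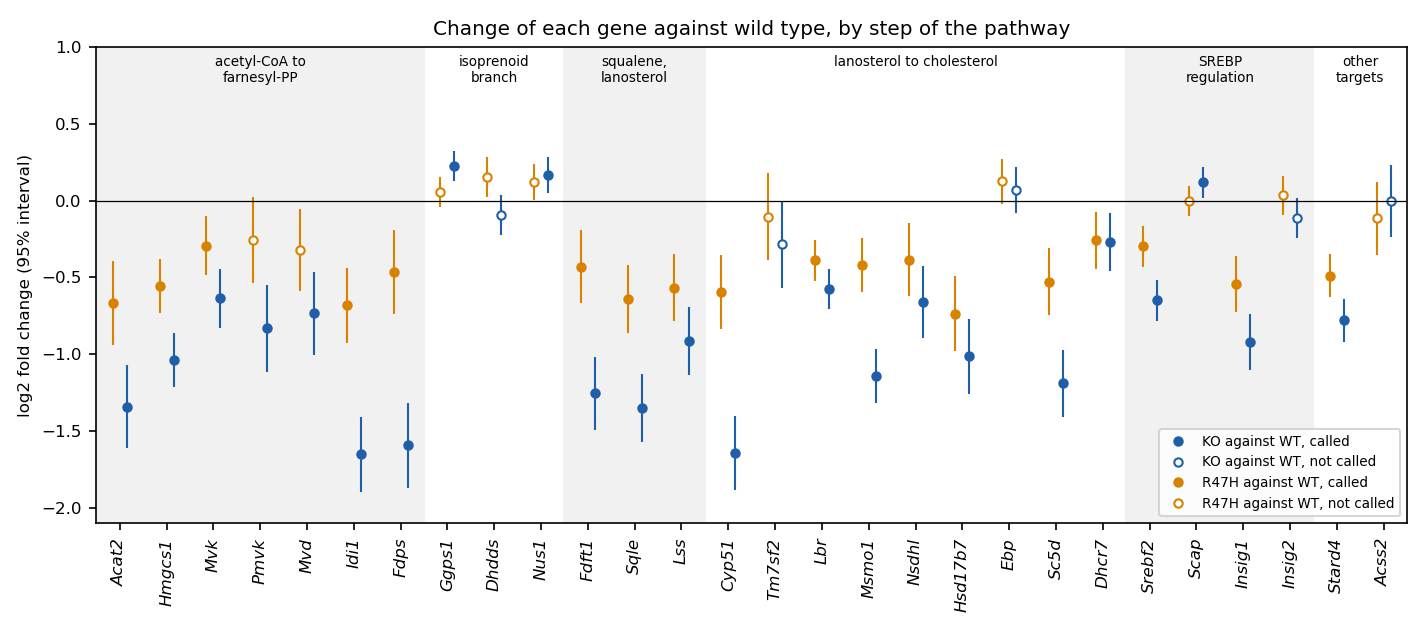
log2 difference from WT (y axis, log2(FPKQ + 1) scale) of each of the 28 genes by step (x axis), for KO and R47H; points are limma estimates, lines are 95% intervals, and filled points had an adjusted p under 0.05. The KO values reach -1.65 at Idi1 and the R47H values -0.74 at Hsd17b7, and the isoprenoid branch, Ebp, Insig2 and Acss2 lie between -0.12 and 0.23 in both.

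The WT libraries themselves differed by number in this pathway. The 19 sterol enzymes summed to 666 ± 46.9 FPKQ in WT Rep1 to Rep5 and to 801 ± 108 in WT Rep6 to Rep10 (n = 5 each). Of the 20 genes lower in KO, 16 had the higher mean in Rep6 to Rep10, with a median of 121% of Rep1 to Rep5 and a range from 90.6% in Hmgcs1 to 143% in Pmvk. In Dhdds, Nus1, Msmo1 and Dhcr7 all of Rep6 to Rep10 lay above all of Rep1 to Rep5, as in 6.18% of all genes tested. WT Rep10 was the highest WT library for 14 of the 20 genes, and WT Rep1 the lowest for 8. The means and ranks of these 20 genes were not set beside those of all genes. Against WT Rep1 to Rep5 alone, 19 genes were lower in KO and 14 in R47H, beside 1965 and 670 of the 10846 genes tested. Dhdds and Nus1 were then called higher in R47H (0.26 and 0.19, adjusted p = 0.0105 and 0.0468), as were 1267 of all genes tested. With only WT Rep6 to Rep10, 22 of the 28 were lower in KO and 20 in R47H, beside 2475 and 789 of the 10830 genes tested. Lower against either set were 19 genes in KO and 14 in R47H, namely Acat2, Hmgcs1, Idi1, Fdft1, Sqle, Lss, Cyp51, Lbr, Msmo1, Hsd17b7, Sc5d, Srebf2, Insig1 and Stard4. Whether the 2 sets are the littermates of the 2 lines is not given in the labels.

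Set directly against each other, R47H was above KO in 18 of the 28 genes and below it in 1, Ggps1, while 9 were not called. Over all genes tested, 22.8% were higher and 18% lower in R47H than in KO. The median difference of the 28 was 0.34, against 0.03 over all genes. The 4 largest differences were those of Fdps at 1.13 (SE 0.15, adjusted p = 8.01e-06), Cyp51 at 1.05 (SE 0.13, adjusted p = 3.89e-06), Idi1 at 0.97 (adjusted p = 1.16e-05) and Fdft1 at 0.82 (adjusted p = 5.56e-05). In 13 genes every R47H library lay above every KO library, as in 12.3% of all genes tested. The late enzymes Nsdhl, Hsd17b7 and Dhcr7, at 0.28, 0.28 and 0.01, did not pass, and the interval of Dhcr7 ran from -0.21 to 0.23. Dhdds was higher in R47H than in KO, by 0.25 (adjusted p = 0.01), with no overlap of the libraries, and Ggps1 was at -0.17 (adjusted p = 0.0195). The calls on Mvd, Lss, Lbr and Ggps1, with adjusted p-values of 0.0324, 0.0276, 0.0463 and 0.0195, were each lost in fits that left out 1 library, in 4, 2, 13 and 3 of the 20. With equal sums Mvd, Lss and Lbr did not pass (adjusted p = 0.0544, 0.0743 and 0.198), and Ggps1 did not with library weights or with only these 2 groups in the fit (adjusted p = 0.0591 and 0.0824). Without R47H Rep4, Scap and Insig2 were called as well (adjusted p = 0.0261 and 0.00397), and without R47H Rep2, Hsd17b7 was (adjusted p = 0.00128).

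**Figure D5:**
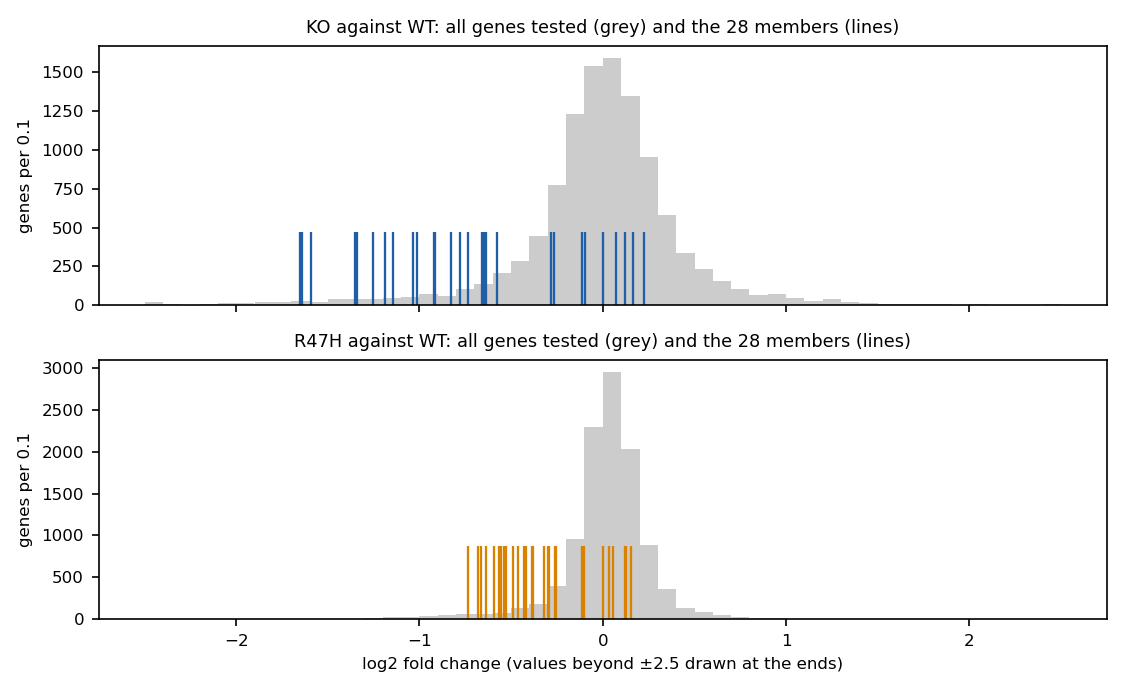
Distribution of the log2 difference from WT (x axis) over the 10843 genes tested, as genes per bin of 0.1 (grey bars, y axis), with a coloured line for each of the 28 genes; KO above, R47H below. The lines lie mostly to the left of the bulk, with medians of -0.76 in KO and -0.39 in R47H against 0.01 and 0.04 over all genes.

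The fall of the sterol genes went along with a fall in genes of cell division. The 15 cell division genes, among them Mcm5 of the replicative helicase and Ccna2, the S-phase cyclin, were lower in each mutant, 15 of 15 in both. Their sum was 737 ± 44.3 FPKQ in WT, 218 ± 14.4 in KO and 481 ± 69.5 in R47H, or 29.6% and 65.3% of WT, beside 45.7% and 72.0% for the sterol enzymes. Pcna, the sliding clamp of DNA polymerases, made up 370 FPKQ of the WT sum and stood at 38.0% of WT in KO and 82.3% in R47H. Without it the other 14 summed to 21.2% of WT in KO and 48.2% in R47H, with single genes from 37.4% to 61.4% in R47H. Ccna2 differed by -2.76 in KO and -1.30 in R47H (adjusted p = 1.83e-15 and 7.27e-09). Between the WT sets the cell division sum was 719 in Rep1 to Rep5 and 754 in Rep6 to Rep10, a smaller gap than that of the sterol enzymes. The part of cell division in the sterol values was not tested.

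Genes around the pathway were taken from lists chosen for their role. These lists and the cell division list were chosen with earlier results of these data known. Their counts stand beside 23.7% of all genes tested lower and 28.2% higher in KO, and 7.83% and 13.4% in R47H. With equal sums these shares were 32.6% and 18.4% in KO, and 16.8% and 4.39% in R47H. Of 13 genes that process SREBP or degrade its partners and targets, 9 were higher in KO and 1 was lower, and in R47H 3 were higher and 1 lower, the R47H counts being near the shares of all genes. With equal sums these became 5 higher and 2 lower in KO, and none higher and 2 lower in R47H, so the R47H direction of this list rested on the scaling. Erlin2, which helps to retain the SCAP complex, was 17.7 ± 0.877 FPKQ in WT, 22.7 ± 1.26 in KO and 19.4 ± 0.437 in R47H. Its differences were 0.34 (adjusted p = 3.94e-07) and 0.13 (adjusted p = 0.0302). The R47H call was lost with equal sums (adjusted p = 0.902), with quantile normalization (adjusted p = 0.0994) and with WT Rep6 to Rep10 as the only controls. It was also lost without WT Rep2, R47H Rep4 or R47H Rep5 (adjusted p = 0.0511 to 0.0643). Rnf145, a ubiquitin ligase induced by LXR that acts on SCAP, differed by 0.31 in KO and 0.19 in R47H (adjusted p = 6.99e-06 and 0.00548). The R47H call was lost with equal sums (adjusted p = 0.371) and with the replicate number as a block (adjusted p = 0.0627). Sec24d, a coat protein of the vesicles that leave the endoplasmic reticulum, differed by 0.39 in KO (adjusted p = 9.01e-05) and by 0.12 in R47H (adjusted p = 0.265). The median of the 13 was 0.16 in KO and 0.07 in R47H.

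Helpers and lesser targets of sterol synthesis were lower in KO in 7 of 10 tested, with 1 higher, and in R47H 1 was lower and 1 higher (4 lower and none higher with equal sums). Rdh11, an SREBP target of retinal reduction, was 21.97 ± 2.12 FPKQ in WT, 13.6 ± 0.372 in KO and 16.9 ± 1.63 in R47H. Of 15 genes that use prenyl groups, 6 were lower and 3 higher in KO, and 1 was lower and none higher in R47H, so that both directions were called in KO, as over all genes. Pggt1b, a subunit of the enzyme that attaches geranylgeranyl groups, was 12.2 ± 1.2 in KO and 7.97 ± 1.62 in R47H, which differed from WT by 0.57 (adjusted p = 0.000136) and -0.01 (adjusted p = 0.963). Dolk, the dolichol kinase, was higher in KO by 0.31 (adjusted p = 0.000439), and Coq2, which joins the prenyl tail of ubiquinone to its ring, was at -0.32 (adjusted p = 0.000958).

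The fatty acid arm of the SREBP targets was lower as well, 13 of 13 tested in KO and 8 of 13 in R47H (13 with equal sums), with none higher in either. Scd2, a stearoyl-CoA desaturase, was 89.0 ± 7.97 FPKQ in WT, 21.5 ± 1.28 in KO and 45.3 ± 14.6 in R47H. Fads2, the desaturase of polyunsaturated fatty acids, had the largest KO difference of that list, at -2.36 (adjusted p = 3.11e-10), with -1.20 in R47H (adjusted p = 3.78e-05). Among 12 tested targets of LXR, the nuclear receptor of oxysterols, and genes of sterol export and storage, 7 were higher and 1 lower in KO, and 6 were higher and 1 lower in R47H. Lpcat3 was the lower gene in both, at -0.19 and -0.20 (adjusted p = 0.0163 and 0.0338). Abca1 was higher in KO by 1.27 (adjusted p = 1.07e-06) and not called in R47H (0.30, adjusted p = 0.204). Abcg1 was not called in KO (-0.07, adjusted p = 0.445) or in R47H (0.06, adjusted p = 0.616). Apoe, the apolipoprotein of macrophage cholesterol efflux, was 4659 ± 981 in WT, 16357 ± 676 in KO and 9627 ± 1787 in R47H. Soat1, which esterifies cholesterol for storage, was 123 ± 8.53, 178 ± 15.7 and 162 ± 8.4, with differences of 0.53 and 0.40 (adjusted p = 5.59e-08 and 2.03e-05).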

How the data were processed

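RNA from 20 macrophage cultures (10 WT, 5 KO, 5 R47H) was sequenced as 75 bp paired reads. The authors deposited 1 file per library with 51456 symbols and FPKQ values, treated here as an FPKM-like unit; no source used here defines it. Per the submitters' processing notes RSEM and GRCm38 were used, with no versions given. In every library the protein-coding genes' percentile 71.5 lay at about 10 FPKQ (9.98 to 10.0), so a shift shared by all genes cannot be seen. Low values were whole multiples of the inferred fragment size, within 0.1 fragments, in 85.7% to 89.5% of cases, too few for a test on counts. Within groups, libraries correlated at 0.980 to 0.995 and no 2 of 190 pairs were identical.

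Genes averaging 1 FPKQ or more were fitted as log2(FPKQ + 1) with limma 3.58.1 (R 4.3.3) in 1 model of 3 groups, with trended eBayes and Benjamini-Hochberg adjustment over 10843 genes and a threshold of 0.05. The pseudocount understates changes of low genes. Trem2 was also tested by exact permutation of the libraries. Errors are SD and n counts animals. Coordinates come from GENCODE M21, which holds 89.2% of the symbols, and promoters from RefSeq. The 28 genes and the 12 other lists were chosen with earlier results of these data known. Named genes are all 28, Trem2, and from the other lists examples among the 3 with the smallest adjusted p in KO. Elane, Mpo, Pcna, Lyz2, Adgre1, Itgam, Fcgr1, Abca1, Abcg1 and Lpcat3 were named after their values were seen. Alternatives were other wild-type sets, pseudocounts, filters, scalings, weights, moderation, the replicate number as a block, and fits without 1 library. Of the list of macrophage genes, 4 were higher and 3 lower of 8 in KO, and 4 and 2 in R47H. With equal sums or quantile normalization these were 3 and 3 in KO, and 1 and 2 in R47H. Of 3 neutrophil genes tested, none was called in KO and 1, Ngp, was higher in R47H. The 1 dendritic gene tested was not called in either mutant. No lymphocyte, stromal, or erythroid and mast gene reached the level required.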

Additional observations from a re-analysis of the deposited data

Results flagged for a closer look

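The check covered 87 groups of 5 or 10 values, which are each of the 28 genes and Trem2 in each genotype. In 7 of them 1 library stood apart from the rest by Dixon's criterion, and chance marks about 1 in 20 such groups. KO Rep5 was high for Mvk, at 10.7 FPKQ against 6.43 to 7.44 in the other KO libraries, and for Hsd17b7, at 3.15 against 2.58 to 2.73. KO Rep3 was low for Cyp51, at 14.5 against 18.2 to 18.8. KO Rep2 was high for Nsdhl, at 12.4 against 10.2 to 10.7, and KO Rep1 for Scap, at 15.4 against 14.8 to 14.9. WT Rep5 was high for Tm7sf2, at 10.8 against 5.33 to 7.86. R47H Rep4 was low for Insig2, at 12.7 against 16.4 to 17.7, in the library with the highest R47H value of Insig1.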

How the results depend on the processing

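The number of the 28 genes lower in KO and in R47H and higher in R47H than in KO, and the number of all genes called in either direction, stayed within 1.5 times under every alternative run, and no called direction reversed. Counts of all genes by direction did not: with equal sums, genes higher in KO went from 3063 to 1999, those higher in R47H from 1452 to 476 and those lower in R47H from 849 to 1824, and 544 were lower in R47H with a minimum mean of 5 FPKQ (8234 genes tested). Of the 28, those higher in KO went from 3 to 1 with equal sums, with WT Rep6 to Rep10 alone and without KO Rep3; those higher in R47H from 0 to 2 with WT Rep1 to Rep5 alone and to 1 without R47H Rep5. Against WT Rep6 to Rep10 alone the Trem2 difference in R47H, -0.27, no longer passed (exact permutation p = 0.135). Leaving out 1 library at a time gave 19 to 21 of the 28 genes lower in KO, 15 to 19 lower in R47H and 16 to 18 higher in R47H than in KO. It gave 5208 to 5765, 1710 to 2356 and 3744 to 4707 genes called in these comparisons, and Trem2 differences of -5.03 to -4.99 and -0.40 to -0.24. Over single genes, the other alternatives left 953 results, called or not called, as they were, lost 36 calls and gained 16. The fits without 1 library left 1622 results, called or not called, as they were, lost 52 calls and gained 6. Same-numbered libraries of different groups did not deviate together throughout (15 pairs, correlations from -0.254 to 0.341, 5 over 0.1). The Rep2 libraries did, in each of their 3 pairs (0.224 to 0.341), and were the 3 cases closest to their own number. As not every pair was over 0.1, the numbers were not taken as pairs. With the replicate number as a block, in which WT Rep6 to Rep10 have no partner, 19 genes were lower and 2 higher in KO, 14 lower and 2 higher in R47H, and 19 higher and none lower in R47H against KO, with 4398, 1802 and 4178 genes called. Genes under a few FPKQ, such as Hsd17b7 in KO, rest on the fewest fragments.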

Other observations

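Among the R47H libraries the level of Trem2, the sterol enzymes and the cell division genes did not follow 1 order. Trem2 measured 673, 772, 794, 496 and 527 FPKQ in Rep1 to Rep5, the 19 sterol enzymes summed to 534, 468, 590, 587 and 461, and the 15 cell division genes to 549, 444, 564, 419 and 431. Rep4, with the lowest Trem2 and the lowest cell division sum, had a sterol sum close to the highest. Rep4 was the highest R47H library for 13 of the 20 genes that were lower in KO, and Rep2 the lowest for 11. Within KO, Rep3 was the lowest for 13 of the 20. With 5 libraries no relation between these measures was tested.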
